A study of Caenorhabditis elegans with 10 samples.

Results

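The 9 genes described here encode the proteinaceous core of meiotic chromosomes in Caenorhabditis elegans. Of these, him-3, htp-1, htp-2 and htp-3 encode HORMA-domain proteins of the chromosome axis, and rec-8 encodes a meiotic cohesin subunit. The genes syp-1, syp-2, syp-3 and syp-4 encode central region proteins of the synaptonemal complex. The 9 genes were chosen by name and function and not by their measured values. They are 9 of the 46748 genes to which the deposited counts were summed. All 9 held enough reads to be tested, as did 12332 genes of the table in all.

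In meiotic prophase each chromosome is folded into loops along a protein axis built on cohesin and HORMA-domain proteins. The axes of homologous chromosomes are then joined along their length by the synaptonemal complex, whose central region is made of SYP proteins that depend on each other for assembly. In C. elegans these structures form in the germ line and are required for crossovers and for correct chromosome segregation.

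Messenger RNA was sequenced from whole worms of the strain F01D4.5(baf20) and of N2, the laboratory wild type, with 5 biological replicates of each. The name F01D4.5(baf20) refers to the gene F01D4.5, but the nature of the baf20 change is not described in the labels. Every sample held a pool of 1000 to 2000 worms, taken 48 hours after release from L1 arrest and fed Escherichia coli OP50 at 20 °C. The design poses the question of how the transcriptome of F01D4.5(baf20) worms differs from that of N2 worms, and for these 9 genes whether meiotic chromosome structure genes take part in that difference.

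The libraries held 9059910 to 11056979 counts. The named gene F01D4.5 averaged 3.23 ± 0.738 CPM in F01D4.5(baf20) worms and 10.8 ± 2.93 CPM in N2 worms (SD, n = 5 each, CPM are counts scaled to a library size of 1e6), a log2 fold change of -1.74 with an adjusted p of 0.0264 by the quasi-likelihood test of edgeR (Benjamini-Hochberg). Its adjusted p missed 0.05, at 0.0853 to 0.132, without any 1 of replicates 1 to 4 of either strain or with F01D4.5(baf20) replicates 1 and 2 summed, and was 0.651 without those 2 libraries. Both libraries numbered 5 stood apart from the other 8, at 66.9 in F01D4.5(baf20) and 76.0 in N2 on a first principal component that held 56.2% of the variance, against -40.9 to 7.99 for the rest. F01D4.5(baf20) replicates 1 and 2 lay together on the second component at -40.3 and -41.1, where the other 8 libraries lay between -0.629 and 23.0. The germ-line marker list, which stands for the cells in which these genes are known to act, was expressed in every library, with 10 of its 12 genes tested and a summed level of 2928 to 4659 CPM in F01D4.5(baf20) worms and 2178 to 4338 CPM in N2 worms. Its members pgl-1 and glh-4, both of which have several rows in the deposited tables, were listed at 0 in all libraries.

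None of the 9 genes passed the adjusted test for a difference between the strains. The ranges of F01D4.5(baf20) and N2 overlapped for all 9, where 0.795% of all genes tested had every F01D4.5(baf20) library above every N2 library and 0.649% every one below. Of the 9, 0 passed an adjusted p of 0.05 in edgeR, where 8 of all 12332 genes tested passed (0.0649%). DESeq2 called 0 of the 9 as well, and 33 of the 12227 genes to which it gave an adjusted p (0.27%). The log2 fold changes, F01D4.5(baf20) over N2, lay between -0.02 and 0.35 with a median of 0.17, and 7 of 9 were above 0. Over all genes tested the median was 0.02 and 53.2% were above 0. At an unadjusted p under 0.05 edgeR gave 1 of the 9 as higher, htp-1, and 0 as lower, where 5.76% of all genes lay under that value, 3.52% as higher and 2.24% as lower. In whole-worm RNA, fewer germ cells and less RNA per germ cell cannot be told apart.

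**Figure D1:**
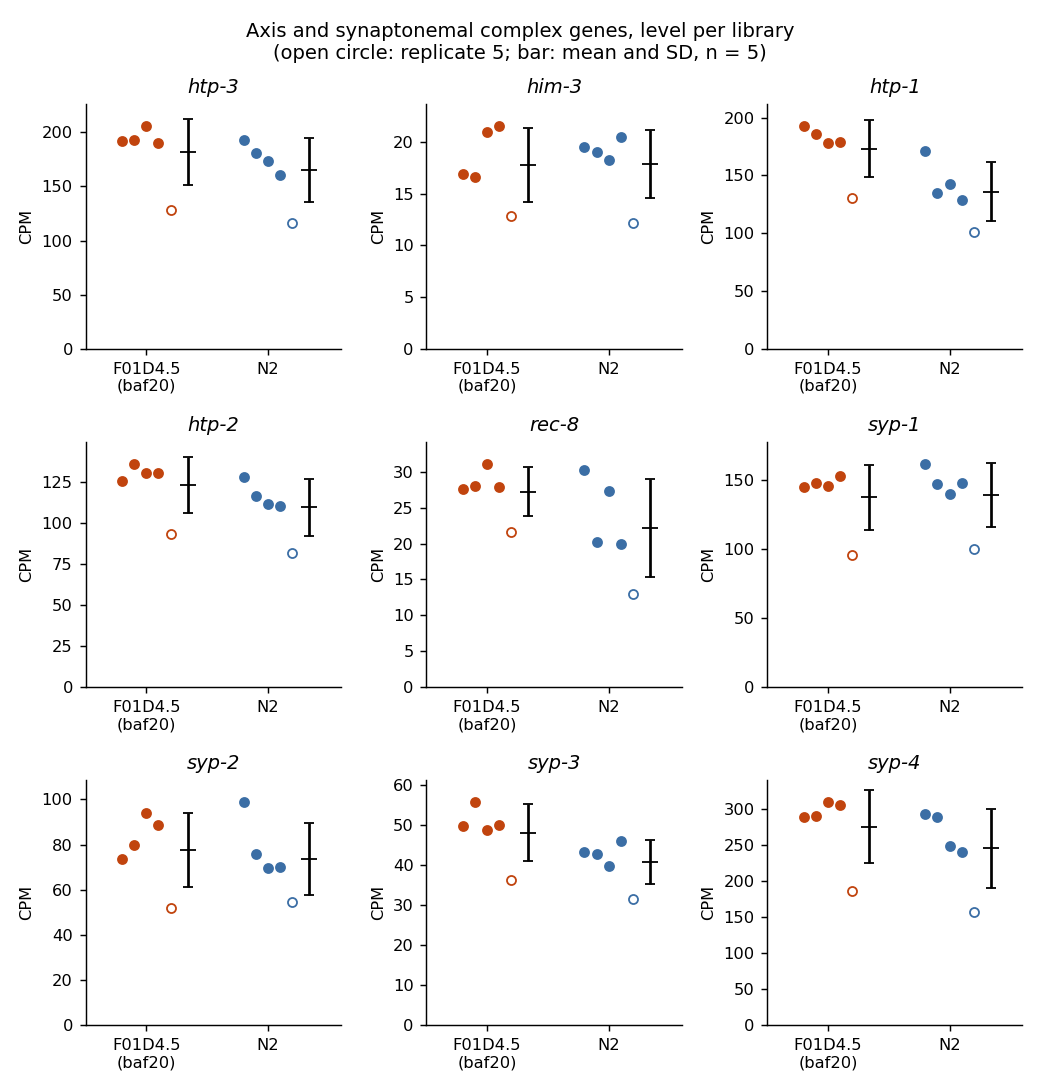
Levels of the 9 genes in CPM, 1 panel a gene with the axis starting at 0, with F01D4.5(baf20) at the left and N2 at the right. Points are libraries, open for replicate 5, bars are means with SD (n = 5), and in every panel the ranges of the 2 strains overlap and replicate 5 is the lowest point.

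htp-3 encodes the HORMA-domain protein at the base of the axis, to which the other HORMA-domain proteins bind. It lies on chromosome I at 4827072 to 4829791 on the plus strand of WBcel235 (sequence name F57C9.5). It had 192, 193, 206, 190.3 and 128.5 CPM in the 5 F01D4.5(baf20) libraries and 193, 181, 173, 160.4 and 116 CPM in the 5 N2 libraries, in the order of the replicate numbers. The lowest value of each strain was that of replicate 5, and the ranges overlapped almost throughout. The means were 182 ± 30.4 CPM in F01D4.5(baf20) worms and 165 ± 29.5 CPM in N2 worms (SD, n = 5 each). The log2 fold change was 0.14 with an SE of 0.160 and an adjusted p of 0.939 in edgeR with Benjamini-Hochberg adjustment.

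htp-1 encodes an axis protein that coordinates homologue pairing with synapsis and protects cohesion at the first division. Its position is chromosome IV, 5390189 to 5391557 on the minus strand (F41H10.10). Its level was 193, 186, 178, 179 and 130.2 CPM in the F01D4.5(baf20) libraries and 172, 135, 142.2, 129 and 101 CPM in the N2 libraries. Of the F01D4.5(baf20) libraries 4 lay above every N2 library, and replicate 5 lay within the N2 range. The means were 173 ± 24.8 CPM in F01D4.5(baf20) worms and 136 ± 25.5 CPM in N2 worms (SD, n = 5 each), and the log2 fold change of 0.35 had a 95% interval of 0.02 to 0.68. The unadjusted p was 0.0389 and the adjusted p 0.835 in edgeR with Benjamini-Hochberg adjustment, so this difference did not pass the test over all genes. DESeq2 gave an unadjusted p of 0.0474 and an adjusted p of 0.859.

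htp-2 encodes a protein very similar to HTP-1 that can partly stand in for it at the axis. The gene is at chromosome IV, 6419522 to 6420898 on the plus strand (Y73B6BL.2). It had 125, 136, 130.2, 130.5 and 93.2 CPM in the F01D4.5(baf20) libraries and 128, 117, 112, 110.1 and 81.4 CPM in the N2 libraries. Apart from N2 replicate 1, every N2 library lay below F01D4.5(baf20) replicates 1 to 4, and F01D4.5(baf20) replicate 5 lay within the N2 range. The log2 fold change was 0.17 with a 95% interval of -0.14 to 0.47 and an adjusted p of 0.927 in edgeR with Benjamini-Hochberg adjustment. Because htp-1 and htp-2 are close paralogs, the split of reads between them is uncertain.

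him-3 encodes the axis protein that worms need for stable pairing, synapsis and crossover formation. It lies on chromosome IV at 6977508 to 6978765 on the plus strand (ZK381.1), and 24 of its 1169 exon bases overlap prkl-1 on the opposite strand. The deposited tables give it 3 rows, and 98.9% of its counts, 884 in the F01D4.5(baf20) libraries and 899 in the N2 libraries, sat on the row ZK381.1b, which the annotation used here calls a non-coding RNA. In that annotation ZK381.1b shares all but 46 of its 922 exon bases with other transcripts. Those 46 bases, at 6977984 to 6978029, are the intron between exons 2 and 3 of the protein-coding transcript ZK381.1a.1. The coding row ZK381.1a.1 held 7 counts over all F01D4.5(baf20) libraries and 11 over all N2 libraries. A row ZK381.1a.2, summed into him-3 but absent from the annotation as a transcript, held 2 in F01D4.5(baf20) and 0 in N2. The him-3 values therefore rest almost wholly on the ZK381.1b row and need not be the level of the coding message.

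Summed over its rows, him-3 had 16.9, 16.6, 20.96, 21.6 and 12.9 CPM in the F01D4.5(baf20) libraries and 19.5, 19.02, 18.2, 20.4 and 12.1 CPM in the N2 libraries. The strains covered almost the same range. The means were 17.8 ± 3.55 CPM in F01D4.5(baf20) worms and 17.9 ± 3.30 CPM in N2 worms (SD, n = 5 each), with a log2 fold change of -0.01, a 95% interval of -0.41 to 0.39 and an adjusted p of 0.997 in edgeR with Benjamini-Hochberg adjustment.

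rec-8 encodes a meiotic kleisin, a subunit that closes the cohesin ring and holds sister chromatids together until it is cleaved. The gene is at chromosome IV, 13349122 to 13353193 on the minus strand (W02A2.6). It also had 3 rows, of which W02A2.6a held every count, 1359 in the F01D4.5(baf20) libraries and 1127 in the N2 libraries, and the other two held 0. W02A2.6a shares with the other transcripts all but 701 of its 2465 exon bases, while W02A2.6b and W02A2.6c have 0 bases of their own. Whether reads that match several transcripts of him-3 or rec-8 were left out of the deposited counts was not tested.

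rec-8 had 27.6, 28.1, 31.04, 27.8 and 21.6 CPM in the F01D4.5(baf20) libraries and 30.2, 20.3, 27.3, 19.99 and 12.98 CPM in the N2 libraries. N2 libraries spread more widely than F01D4.5(baf20) libraries, with an SD of 3.45 CPM around a mean of 27.2 CPM in F01D4.5(baf20) and of 6.79 CPM around 22.2 CPM in N2 (n = 5 each). The log2 fold change of 0.30 had the widest interval of the 9 genes, -0.16 to 0.76, and an adjusted p of 0.903 in edgeR with Benjamini-Hochberg adjustment.

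**Figure D2:**
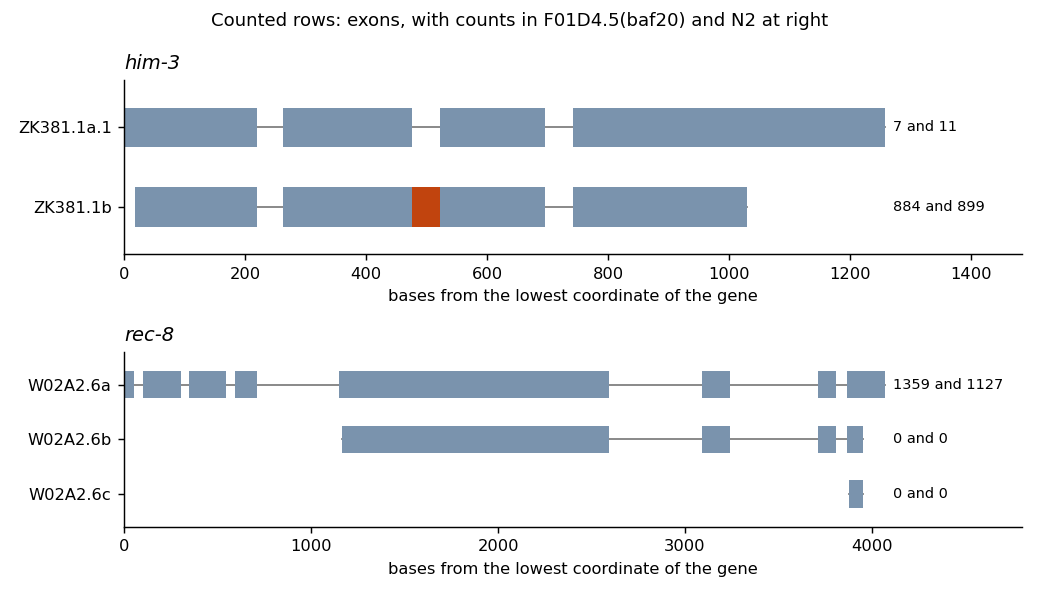
Exons of the deposited rows of him-3 and rec-8 that the annotation holds, drawn to scale as bases from the lowest coordinate of each gene, with the summed counts in F01D4.5(baf20) and then N2 at the right of each row. The marked block is the 46-base stretch of ZK381.1b that is intron in ZK381.1a.1. Nearly all him-3 counts sat on ZK381.1b, and all rec-8 counts on the longest row.

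syp-1 encodes a coiled-coil protein that spans the central region of the synaptonemal complex. The annotation places it on chromosome V at 16404274 to 16407701 on the plus strand (F26D2.2). It had 145, 148, 145, 153 and 95.4 CPM in the F01D4.5(baf20) libraries and 161, 147, 139.8, 148 and 99.8 CPM in the N2 libraries. Its level was the most similar between the strains after him-3, with a log2 fold change of -0.02, a 95% interval of -0.37 to 0.33 and an adjusted p of 0.987 in edgeR with Benjamini-Hochberg adjustment. Of its 3053 exon bases 517 are shared with F13A7.14 on the same strand, so that reads from that stretch could not be assigned to either gene with certainty.

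syp-2 encodes a small central region protein. Its position is chromosome V, 5536487 to 5537717 on the plus strand (C24G6.1). It had 73.7, 79.8, 93.7, 88.7 and 52.0 CPM in the F01D4.5(baf20) libraries and 98.6, 75.7, 69.5, 70.2 and 54.7 CPM in the N2 libraries. The highest value was N2 replicate 1 and the lowest F01D4.5(baf20) replicate 5. The log2 fold change was 0.07 with a 95% interval of -0.33 to 0.48 and an adjusted p of 0.960 in edgeR with Benjamini-Hochberg adjustment.

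syp-3 encodes another central region component. It lies on chromosome I at 8663045 to 8664445 on the minus strand (F39H2.4), and 61 of its 934 exon bases overlap mrt-1 on the opposite strand. Reads of overlapping genes on opposite strands cannot be told apart without a stated strand setting. It had 49.8, 55.7, 48.9, 50.03 and 36.4 CPM in the F01D4.5(baf20) libraries and 43.2, 42.8, 39.9, 46.0 and 31.7 CPM in the N2 libraries. As for htp-1, F01D4.5(baf20) replicates 1 to 4 lay above every N2 library and replicate 5 lay within their range. The means were 48.2 ± 7.11 CPM in F01D4.5(baf20) worms and 40.7 ± 5.49 CPM in N2 worms (SD, n = 5 each). The log2 fold change was 0.24 with an SE of 0.139, an unadjusted p of 0.110 and an adjusted p of 0.896 in edgeR with Benjamini-Hochberg adjustment.

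syp-4 encodes the last central region protein of the set and lies on chromosome I at 6847511 to 6849923 on the plus strand (H27M09.3). It had the most counts of the 9 genes, with 289, 289.9, 309, 305 and 186 CPM in the F01D4.5(baf20) libraries and 293, 289, 249, 241 and 157 CPM in the N2 libraries. N2 replicates 1 and 2 reached the range of F01D4.5(baf20) replicates 1 to 4, and the other N2 libraries lay below it. The means were 276 ± 50.9 CPM in F01D4.5(baf20) worms and 246 ± 55.0 CPM in N2 worms (SD, n = 5 each), with a log2 fold change of 0.17, an SE of 0.187 and an adjusted p of 0.939 in edgeR with Benjamini-Hochberg adjustment.

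**Figure D3:**
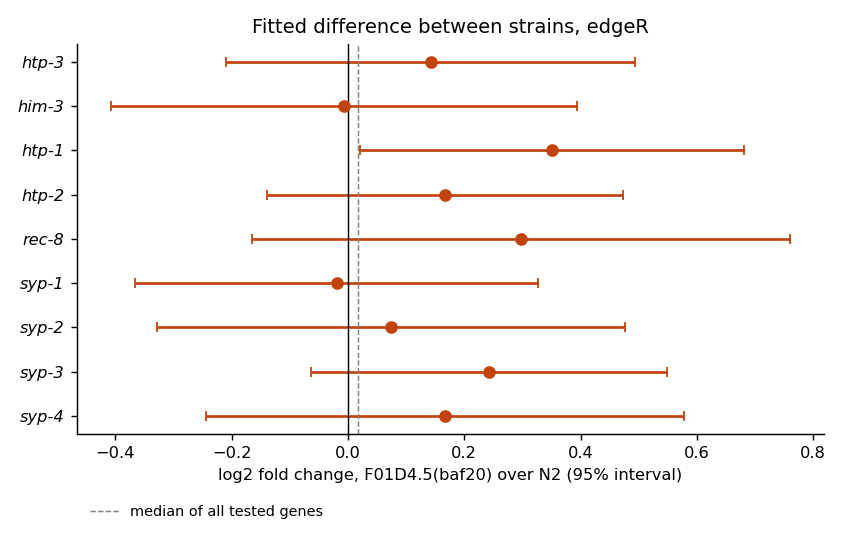
Log2 fold changes, F01D4.5(baf20) over N2, of the 9 genes with 95% intervals from edgeR. The interval of htp-1 starts at 0.02, and the intervals of the other 8 genes include 0.

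Over the 9 genes the 95% intervals reached no lower than -0.41 and no higher than 0.76 on the log2 scale. On simulated counts for this comparison, edgeR recovered 7.46% of the genes given a 1.5-fold change, 52.2% at 2-fold and 86.4% at 4-fold. Differences of the size fitted here would therefore seldom be called. The simulation changed 67, 67 and 66 genes at these folds, and 6 unchanged genes were also called. It drew each gene independently, without the shift that replicate 5 shows across genes, so recovery in the real libraries may differ. The biological coefficient of variation of the 9 genes had a median of 0.211 and that of all genes tested a median of 0.237.

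Levels were compared between genes per 1000 bases of merged exons. In F01D4.5(baf20) worms the order from high to low was htp-1, syp-4, htp-2, htp-3, syp-2, syp-3, syp-1, him-3 and rec-8. In N2 worms syp-4 stood before htp-1 and syp-1 before syp-3, and the order was otherwise the same. At the top, htp-1 had 141 ± 20.1 CPM per kilobase in F01D4.5(baf20) worms and 110.5 ± 20.7 in N2 worms, and syp-4 had 135 ± 24.9 CPM per kilobase in F01D4.5(baf20) worms and 120.3 ± 26.9 in N2 worms (SD, n = 5 each).

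In the middle of the order, htp-2 had 99.4 ± 13.8 CPM per kilobase in F01D4.5(baf20) worms and 88.6 ± 13.97 in N2 worms, while htp-3 had 77.6 ± 12.996 CPM per kilobase in F01D4.5(baf20) worms and 70.3 ± 12.6 in N2 worms. syp-2 followed with 71.05 ± 14.9 CPM per kilobase in F01D4.5(baf20) worms and 67.5 ± 14.6 in N2 worms. The central region genes syp-3 and syp-1 lay close together: syp-3 had 51.6 ± 7.61 CPM per kilobase in F01D4.5(baf20) worms and 43.6 ± 5.88 in N2 worms, and syp-1 had 44.9 ± 7.73 in F01D4.5(baf20) worms and 45.5 ± 7.63 in N2 worms. Of the HORMA-domain genes, htp-1, htp-2 and htp-3 stood before syp-2, syp-3 and syp-1 on this length, and syp-4 stood near the top. That order did not hold per kilobase of coding bases. There syp-2 stood before htp-2 and htp-3, and syp-1 before htp-3, in both strains. By merged exons syp-4 lay above syp-1 without overlap in either strain. Its range was 91.1 to 151 CPM per kilobase against 31.2 to 50.1 for syp-1 in F01D4.5(baf20) libraries. In N2 libraries it was 76.6 to 144 against 32.7 to 52.8. The range of syp-2 overlapped that of syp-4 in N2, at 50.1 to 90.3, but not in F01D4.5(baf20), at 47.6 to 85.8. Per kilobase of coding bases the ranges of syp-4 and syp-1 overlapped in both strains. The means on that scale were 152 for syp-4 and 93.5 for syp-1 in F01D4.5(baf20) worms, and 135 and 94.8 in N2 worms.

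At the bottom, him-3 had 15.2 ± 3.04 CPM per kilobase in F01D4.5(baf20) worms and 15.3 ± 2.82 in N2 worms. rec-8 had 11.05 ± 1.40 CPM per kilobase in F01D4.5(baf20) worms and 8.99 ± 2.75 in N2 worms. These are the genes whose counts sat on a single row among several.

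Neighbours in this order overlapped across libraries at all but 1 step in each strain, that from syp-1 to him-3 in F01D4.5(baf20) and that from syp-3 to him-3 in N2. Within single libraries the order was steadier. htp-1 was above syp-4 in 3 of 5 F01D4.5(baf20) libraries, and syp-4 above htp-1 in 4 of 5 N2 libraries. In N2, htp-3 was above syp-2 in 3 of 5 libraries and syp-1 above syp-3 in 3 of 5. All other steps held in 5 of 5 libraries of their strain. Per 1000 coding bases, 5 genes in F01D4.5(baf20) and 4 in N2 took another rank. The summed level of each gene was also divided by the bases of its main row that no other transcript or gene shares. There him-3 had 387 CPM per kilobase in F01D4.5(baf20) worms and 389 in N2 worms, the highest of the 9. The low rank of him-3 therefore depends on the length used. Its value on this scale rests on 46 bases, beyond which counted reads can extend, and is not taken as its level. On that scale rec-8 had 38.8 CPM per kilobase in F01D4.5(baf20) worms and 31.6 in N2 worms, and it was the lowest of the 9 in both strains under each of the 4 lengths tried, which were merged exons, coding bases, the longest transcript and unshared bases.

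The 9 genes shared a low level in replicate 5, but among replicates 1 to 4 they did not always move alike. In N2 replicate 4, log2 CPM minus the gene's mean was 0.22 for him-3 and -0.26 for rec-8. Their summed level was 1112, 1132, 1163, 1146 and 757 CPM in the F01D4.5(baf20) libraries and 1139, 1026, 971, 945 and 666 CPM in the N2 libraries. In both strains each of the 9 had its lowest value in replicate 5, a pattern whose share over all genes was not computed. There the level was 0.619 (syp-2) to 0.754 (rec-8) of the mean of the other 4 libraries in F01D4.5(baf20), and 0.531 (rec-8) to 0.737 (syp-3) in N2. The coefficient of variation of single genes was 12.7 to 20.98% in F01D4.5(baf20) and 13.5 to 30.6% in N2 over 5 libraries, and 2.49 to 13.7% in F01D4.5(baf20) and 4.79 to 20.999% in N2 over replicates 1 to 4.

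**Figure D4:**
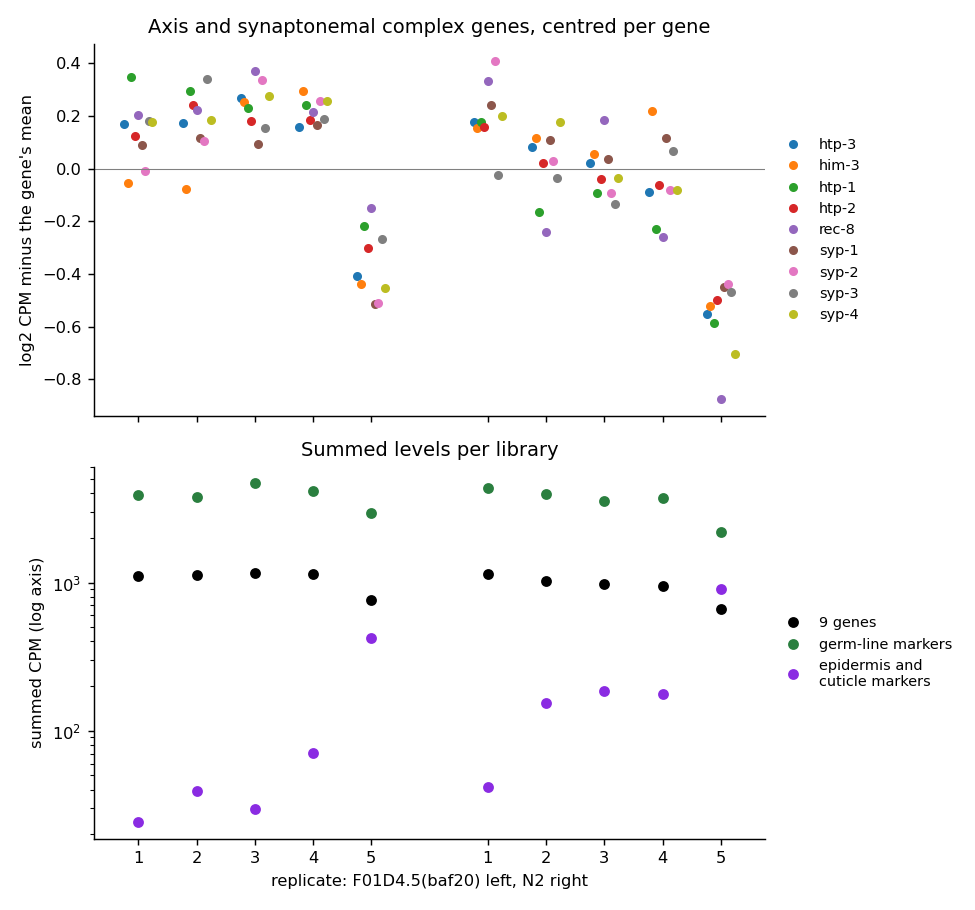
Log2 CPM of each gene in each library, centred on the gene's mean over the 10 libraries (top), and summed CPM of the 9 genes and of 2 marker lists on a log axis (bottom), with F01D4.5(baf20) at the left. The mean of the 9 centred values lay at -0.36 in F01D4.5(baf20) replicate 5 and -0.57 in N2 replicate 5, and between -0.05 and 0.24 in the other 8 libraries.

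Markers of germ line and epidermis also differed in those libraries. The summed level of the germ-line markers was 2928 CPM in F01D4.5(baf20) replicate 5, against 3747 to 4659 CPM in the other F01D4.5(baf20) libraries, and 2178 CPM in N2 replicate 5, against 3563 to 4338 CPM in the other N2 libraries. The epidermis and cuticle markers summed to 419 CPM in F01D4.5(baf20) replicate 5, against 24.3 to 70.3 CPM in its other libraries, and to 907 CPM in N2 replicate 5, against 41.6 to 185 CPM in its other libraries. Of the 7 epidermis and cuticle markers tested 0 were called and 7 had a negative log2 fold change, with a median of -1.4. The germ-line markers had a median log2 fold change of 0.14 with 9 of 10 positive, and 0 of them was called. The other marker lists also had 0 called genes, with median log2 fold changes of 0.23 for sperm, -0.10 for gut, -0.09 for body wall muscle, -0.22 for neurons and -0.32 for pharynx. Per 100 CPM of germ-line markers, the 9 genes held 28.8, 30.2, 25.0, 27.7 and 25.8 CPM in the F01D4.5(baf20) libraries and 26.3, 26.0, 27.3, 25.5 and 30.6 CPM in the N2 libraries. On that scale N2 replicate 5 was the highest of the 10 libraries, and F01D4.5(baf20) replicate 5 lay within the range of the other libraries of its strain. The part of these markers in the strain values of the 9 genes was not tested.

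Leaving out both libraries numbered 5 did not bring any of the 9 genes past the adjusted threshold. Leaving out F01D4.5(baf20) replicate 5 alone gave a median log2 fold change of 0.25, against 0.011 over all genes tested. Leaving out N2 replicate 5 alone gave 0.041, against 0.042 over all genes tested. Without both the median was 0.15. It was 0.11 without F01D4.5(baf20) replicate 4 and also without F01D4.5(baf20) replicates 1 and 2. The size of the median, and its distance from the median of all genes, therefore moved with single libraries.

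Ratios of 2 of the 9 genes within a library do not depend on the scaling of that library. They were examined after the counts had been seen. Of 36 ratios, 5 did not overlap between the strains (13.9%), and 0 of 36 passed an adjusted p of 0.05 (0%). The share for ratios of other genes was not computed, so this count is not read against a background, and 4 of the 5 ratios share syp-1. Each of the 5 had the smallest p that an exact two-sided permutation test of 5 against 5 libraries can give, 0.00794, and an adjusted p of 0.0572 over the 36 ratios. F01D4.5(baf20) replicates 1 and 2, which had the most similar counts, entered as separate libraries. Without them the adjusted p of each of the 5 was 0.257 by the same test. Fewer libraries also raise the smallest p that this test can give.

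The ratio of htp-1 to htp-2 counts was 1.54, 1.37, 1.37, 1.37 and 1.40 in the F01D4.5(baf20) libraries and 1.34, 1.16, 1.27, 1.17 and 1.24 in the N2 libraries. Every F01D4.5(baf20) library lay above every N2 library, also replicate 5, and the mean difference was 0.19 on the log2 scale. The nearest libraries of the 2 strains were 1.37 in F01D4.5(baf20) and 1.34 in N2. Any sharing of reads between these paralogs enters this ratio.

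The other 4 ratios all hold syp-1 and are not independent of each other. The ratio of htp-1 to syp-1 was 1.27 ± 0.0781 in F01D4.5(baf20) libraries and 0.977 ± 0.0771 in N2 libraries (SD, n = 5 each), the largest difference of the 5, 0.38 on the log2 scale. The ratio of htp-2 to syp-1 was 0.854 to 0.977 in F01D4.5(baf20) libraries and 0.745 to 0.816 in N2 libraries, and that of htp-3 to syp-1 was 1.25 to 1.42 in F01D4.5(baf20) libraries and 1.09 to 1.24 in N2 libraries. The ratio of him-3, the remaining HORMA-domain gene, to syp-1 overlapped between strains, at 0.113 to 0.144 in F01D4.5(baf20) libraries and 0.121 to 0.138 in N2 libraries (exact permutation p = 0.857). The ratios of htp-1, htp-2 and htp-3 to syp-1 share that gene, and none passed the adjusted test. Ratios of htp-1, htp-2 and htp-3 to syp-2, syp-3 or syp-4 overlapped between the strains. The ratio of syp-1 to syp-3 was 2.62 to 3.06 in F01D4.5(baf20) libraries and 3.15 to 3.73 in N2 libraries, so syp-1 also stood lower against this other central region gene. Leaving out libraries cannot make groups overlap that did not, so the fit without both libraries numbered 5 is no further test of the 5 ratios. Their adjusted p there was 0.172 by the exact permutation test. With 4 libraries a strain that test cannot go below an unadjusted p of 0.0286.

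**Figure D5:**
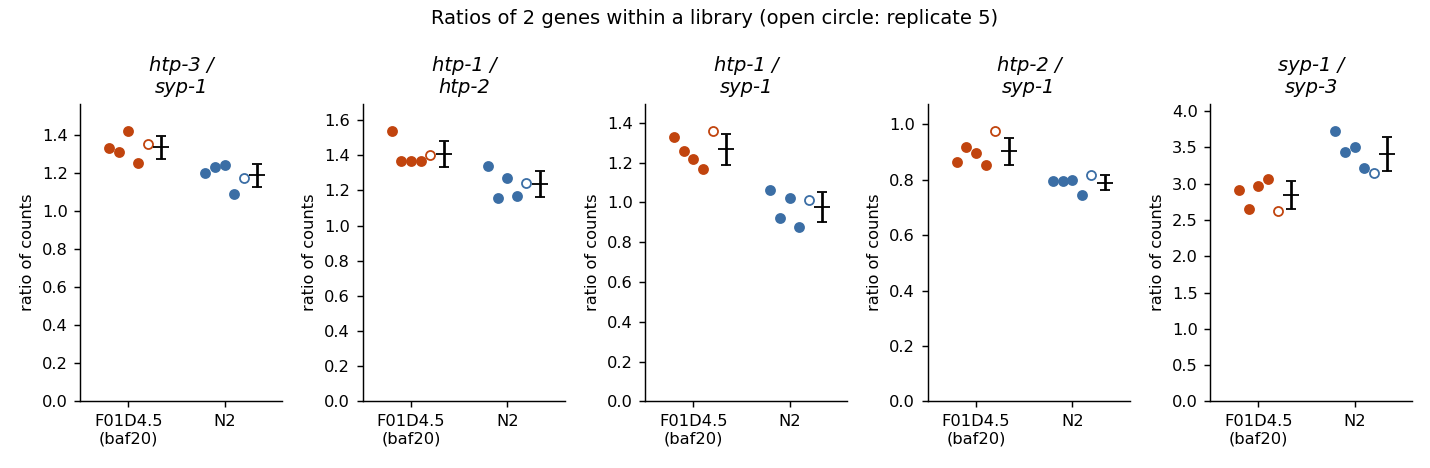
Within-library ratios of counts for the 5 gene combinations whose values did not overlap between F01D4.5(baf20), at the left, and N2, at the right. Points are libraries and bars are means with SD, and in each panel the 5 F01D4.5(baf20) libraries lie on the same side of the 5 N2 libraries.

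Other genes of meiotic prophase were taken from 5 lists of 51 genes in all, of which 50 were matched (all but pds-5) and 44 tested. None was called higher and none lower by edgeR's adjusted test, where 0.0324% of all genes were called higher and 0.0324% lower. Of the 44, 37 had a positive and 7 a negative log2 fold change, with a median of 0.10 (0.095). At an unadjusted p under 0.05 there was 1 of 44, pch-2, which encodes the AAA ATPase that remodels HORMA-domain proteins. pch-2 had 102, 108, 112, 119 and 77.5 CPM in the F01D4.5(baf20) libraries and 97.6, 81.55, 89.5, 73.7 and 61.05 CPM in the N2 libraries. As for htp-1, F01D4.5(baf20) replicates 1 to 4 lay above all N2 libraries, and the log2 fold change was 0.36 with an SE of 0.148 and an adjusted p of 0.835 in edgeR with Benjamini-Hochberg adjustment.

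Among other axis and cohesin genes, 6 of 7 tested had a positive log2 fold change and the median was 0.16. scc-2, which encodes the cohesin loader, averaged 390.3 ± 58.9 CPM in F01D4.5(baf20) worms and 334 ± 83.5 CPM in N2 worms (SD, n = 5 each), and its values overlapped. scc-3, which encodes a core cohesin subunit, averaged 282 ± 36.2 CPM in F01D4.5(baf20) worms and 249 ± 49.7 CPM in N2 worms. smc-3, another core subunit, stood at 2.41 ± 0.566 CPM in F01D4.5(baf20) worms and 1.87 ± 0.417 CPM in N2 worms and has 3 rows in the deposited tables. None of the 3 passed the adjusted test.

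Of the other synaptonemal complex genes 2 of 4 had a positive and 2 a negative log2 fold change, with a median of -0.01 (-0.015). syp-5 and syp-6 encode further central region proteins. syp-5 averaged 95.6 ± 20.1 CPM in F01D4.5(baf20) worms and 98.3 ± 24.5 CPM in N2 worms, and syp-6 averaged 155 ± 30.5 CPM in F01D4.5(baf20) worms and 149.9 ± 31.4 CPM in N2 worms (SD, n = 5 each). Like syp-1, they differed by less than the spread between libraries, with log2 fold changes of -0.04 for syp-5 and 0.05 for syp-6. skr-1, which encodes a Skp1-related protein found in the complex, averaged 3.83 ± 0.898 CPM in F01D4.5(baf20) worms and 4.12 ± 1.63 CPM in N2 worms.

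Among genes that control pairing and synapsis, 8 of 9 had a positive log2 fold change, with a median of 0.12. Besides pch-2, cra-1, which encodes a regulator of central region assembly, averaged 498 ± 45.7 CPM in F01D4.5(baf20) worms and 460.0 ± 54.1 CPM in N2 worms, a log2 fold change of 0.11. zyg-12, which encodes the KASH protein that links chromosomes through the nuclear envelope to the cytoskeleton, has 6 rows, and its counts summed to 1.68 ± 0.464 CPM in F01D4.5(baf20) worms and 1.24 ± 0.340 CPM in N2 worms.

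Of the genes for break formation and repair 12 of 16 were tested, 11 with a positive log2 fold change and 1, dsb-1, with a negative one. The negative value of dsb-1, -0.30, became 0.14 when the row with the most counts stood for the gene in place of the sum of its 3 rows. dsb-1 and dsb-3 encode factors that worms need for meiotic double-strand breaks. dsb-1 averaged 3.603 ± 0.451 CPM in F01D4.5(baf20) worms and 4.43 ± 1.31 CPM in N2 worms, and dsb-3 averaged 12.01 ± 2.09 CPM in F01D4.5(baf20) worms and 9.47 ± 2.21 CPM in N2 worms (SD, n = 5 each). rad-54.L, which encodes a partner of the recombinase RAD-51, averaged 97.1 ± 19.1 CPM in F01D4.5(baf20) worms and 85.3 ± 14.4 CPM in N2 worms. All 3 overlapped between strains and missed the adjusted threshold. rad-50 and brd-1, and the cohesin release gene wapl-1, were at 0 counts in every library, and each has 3 to 5 rows. The muscle genes unc-15 and unc-22, with 8 and 18 rows, were also at 0, so that 0 counts set no limit on the level of a gene with several rows. Low levels of zyg-12, smc-3, skr-1, dsb-1 and dsb-3, each with 2 to 6 rows, carry the same doubt.

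Of the crossover genes 10 of 12 tested had a positive log2 fold change, with a median of 0.08. him-14, which encodes a MutS homologue that stabilises crossover intermediates, averaged 61.1 ± 12.9 CPM in F01D4.5(baf20) worms and 50.04 ± 7.67 CPM in N2 worms, a log2 fold change of 0.29 with an adjusted p of 0.900 in edgeR with Benjamini-Hochberg adjustment. slx-1, which encodes a nuclease subunit, averaged 88.8 ± 14.2 CPM in F01D4.5(baf20) worms and 75.8 ± 16.4 CPM in N2 worms. zhp-1, which encodes a RING-finger protein of the synaptonemal complex, averaged 35.9 ± 6.61 CPM in F01D4.5(baf20) worms and 31.3 ± 5.001 CPM in N2 worms. Their ranges overlapped between the strains.

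The genes whose profile over the 10 libraries was most like the mean profile of the 9 were perm-5, klp-16, drh-3, adal-1 and dsb-2, out of 9345 genes compared. klp-16 encodes a kinesin-like motor and drh-3 a Dicer-related helicase of small RNA pathways. Likeness was the root mean square difference of centred log2 CPM over the 10 libraries. It was 0.0242 for perm-5, 0.0322 for klp-16, 0.0345 for drh-3, 0.0359 for adal-1 and 0.0388 for dsb-2, against a median of 0.319 over the genes compared. Among the 9 genes themselves, which make up that mean profile, it ran from 0.0412 for htp-3 to 0.181 for rec-8. Of the 9, htp-3 thus followed the common profile most closely and rec-8 least. dsb-2, a gene needed for meiotic breaks, had 56.0, 57.1, 61.3, 62.5 and 39.8 CPM in the F01D4.5(baf20) libraries and 57.3, 51.8, 52.0, 51.3 and 36.8 CPM in the N2 libraries. These 5 genes had log2 fold changes of 0.11 to 0.15 and did not pass the adjusted test. The profile by which they were picked holds the strain difference, so these values are no separate support.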

How the data were processed

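Raw read counts were deposited by the authors for every sample, in 57827 rows named mostly by transcript. Per the submitters' processing notes, the tools were DESeq2, HTSeq, HISAT2 and CASAVA and the builds ce10 and ce11, with no versions or roles. The counting's strand setting is not given in these sources. Libraries followed the TruSeq Stranded mRNA protocol, per the labels' protocols. Row names were matched to Ensembl release 115 on WBcel235 (57515 rows, 99.78% of counts) and rows were summed per gene. Of the genes, 5541 have several rows.

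The strain comparison used the two-sided quasi-likelihood test of edgeR 4.0.16 (R 4.3.3), with strain as the only term. Genes were filtered by filterByExpr (minimum count 10, minimum total 15) and libraries scaled by TMM. Benjamini-Hochberg adjustment ran over 12332 genes, and the threshold was 0.05. DESeq2 1.42.0 was an alternative. Log2 CPM used a prior count of 2. In the libraries, 3 counts were 0.271 to 0.331 CPM, and such limits cover counting error only. The procedure was tested on simulated data.

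The 9 genes, the lists of other meiotic genes and of markers, the alternatives and the rule for named genes were chosen with earlier results of these data known. The rule named the 9 genes, F01D4.5, up to 3 genes with the smallest p from each meiotic list, and the 5 genes of mean log2 CPM 2 or more with the most similar profile. Row counts of him-3 and rec-8 were looked at after the data had been seen.

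Of all replicates within a strain, F01D4.5(baf20) 1 and 2 had the most similar counts (chi-square over degrees of freedom 2.20, against 5.85 to 129). They were kept as separate samples. The design text calls the samples biological replicates. No label gives a batch.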

Additional observations from a re-analysis of the deposited data

Results flagged for a closer look

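In 28 groups of 5 values from the 9 genes and the ratios, 7 held a library far from the others of its strain. Chance alone would flag about 1 in 20 independent groups. These groups are not independent, since each of the 9 genes was lowest in replicate 5 of both strains. The ratios were taken because they did not overlap between strains. The count of 7 is therefore not read against that rate. In F01D4.5(baf20) replicate 5, htp-3 stood at 128.5 CPM, htp-1 at 130.2 CPM, htp-2 at 93.25 CPM, syp-1 at 95.4 CPM and syp-4 at 186.3 CPM, each below the other 4 libraries by a gap of 0.753 to 0.860 of the range of the strain. In N2 replicate 5, him-3 stood at 12.15 CPM, below the rest by 0.734 of the range. These are the 2 libraries with the most epidermis and cuticle marker RNA of their strain, and the part of that in these values was not tested. The ratio of htp-1 to htp-2 stood at 1.54 in F01D4.5(baf20) replicate 1, above the other 4 libraries by 0.824 of the range.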

How the results depend on the processing

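Under all 20 alternatives, of which 1 was added after seeing the data, 0 of the 9 genes were called. Over all genes, 4 were called higher and 4 lower in F01D4.5(baf20). DESeq2 called 17 higher and 16 lower. Without both libraries numbered 5 these counts were 9 and 9. They were 1 and 1 with F01D4.5(baf20) replicates 1 and 2 summed, and 1 and 1 without both (the added alternative). With no filter on low counts 2 were lower. Leaving out single libraries gave 1 to 8 higher and 1 to 5 lower. The causes were not tested. The median log2 fold change of the 9 genes ran from 0.04 (without N2 replicate 5) to 0.25 (without F01D4.5(baf20) replicate 5). The log2 fold change changed sign for him-3 in 7 alternatives, for syp-1 in 4 and for syp-2 in 3, and among the named list genes for syp-5 and syp-6 in 2 each and for skr-1 and dsb-1 in 1 each. That of htp-1 stayed between 0.26 and 0.45, with adjusted p of 0.167 to 1. F01D4.5 lost its call in 10 of the 20 alternatives (edgeR or DESeq2 adjusted p 2.86e-07 to 0.651), with a log2 fold change of -1.9 to -1.6.

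The replicate numbers were not taken to pair the samples: the deviations of libraries with the same number correlated at 0.153, 0.145, 0.00185, -0.131 and 0.822, and only replicate 5 of each strain correlated best with its own number. With the replicate block 3 genes were called higher, 3 lower and 0 of the 9, whose median stayed at 0.17. There, htp-1, rec-8 and syp-3 had an unadjusted p under 0.05, with adjusted p of 0.168, 0.429 and 0.41 in edgeR. Of the 9 genes him-3 had the fewest counts, at least 112 a library on its main row and 0 to 4 on its coding row.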
